A study of Mus musculus with 6 samples.

Results

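The subunits of the vacuolar H+-ATPase (V-ATPase) and the best-known proteins of the lysosomal membrane were followed in 6 mouse RNA-seq libraries as a set of 32 genes chosen by name. All 32 were among the 17524 genes of the deposited table, and all 32 were among the 13565 genes kept by the filter on low counts. The set holds 19 V-ATPase genes, of which 9 encode the membrane sector V0, 8 the catalytic sector V1 and 2 accessory proteins, and 13 genes of lysosomal membrane glycoproteins, channels, transporters and other multispan proteins. The 32 genes together took between 0.310% and 0.393% of the counts of a library.

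The study compared TFEB overexpression with control in hearts whose left anterior descending coronary artery had been ligated, an operation that both groups had undergone. The 3 TFEB overexpression libraries, numbered 34, 41 and 43 in their titles, belong to the line R26-LSL-TFEB [+/+]; Acta2-cre, in which Cre driven by the Acta2 promoter, active in smooth muscle cells and myofibroblasts, releases a TFEB cassette at the Rosa26 locus. The 3 control libraries, numbered 35, 36 and 37, carry the genotype label WT. Age and time after ligation were not given in the sources used here, and no label states that each library is a different animal, so the p-values speak of the spread among these 6 libraries alone.

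The labels name the tissue as heart and also call the material primary fibroblasts. Cardiomyocyte genes dominated every library. The summed level of 12 cardiomyocyte markers was 72730 to 135100 CPM (counts scaled to the size of the library) in the TFEB overexpression libraries and 89570 to 122100 CPM in the control libraries. That of 10 fibroblast markers was 2086 to 13360 CPM in the TFEB overexpression libraries and 2715 to 9099 CPM in the control libraries. The values below are therefore described as those of heart tissue with many cell types, and in such bulk libraries fewer cells of a type and less RNA per cell cannot be told apart. Tfeb itself had 45.3, 45.2 and 39.4 CPM in TFEB 34, 41 and 43, against 34.4, 33.8 and 41.4 CPM in controls 35, 36 and 37. The groups overlapped, with a log2 fold change of 0.25 (SE 0.12), and whether transcripts of the cassette were counted under Tfeb was not tested.

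The V-ATPase is the rotary proton pump that acidifies lysosomes, endosomes and secretory vesicles. Its V1 sector hydrolyses ATP on the cytosolic side and turns the ring of V0 that carries protons across the membrane, and the association of the sectors is regulated. TFEB is a basic helix-loop-helix transcription factor that is known to bind E-box sequences of the CLEAR type (coordinated lysosomal expression and regulation) in the promoters of many lysosomal genes, V-ATPase subunits among them.

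The letters of that element were looked up in RefSeq promoter windows, which run from 250 bases before to 50 bases after an annotated start on mouse build GRCm38.p6. The following 4 windows are shown because they hold the E-box hexamer in its longer form and, of the members that do, belong to those with the lowest p between the groups. Each is written 5′ to 3′ on the strand of its gene, and capitals mark the matches. Clcn7 encodes the lysosomal chloride-proton exchanger, Atp6v1a the catalytic A subunit of V1, Atp6v0e the small e1 subunit of V0 and Mcoln1 the calcium channel mucolipin.

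Clcn7 (chr17:25133141-25133440, plus strand): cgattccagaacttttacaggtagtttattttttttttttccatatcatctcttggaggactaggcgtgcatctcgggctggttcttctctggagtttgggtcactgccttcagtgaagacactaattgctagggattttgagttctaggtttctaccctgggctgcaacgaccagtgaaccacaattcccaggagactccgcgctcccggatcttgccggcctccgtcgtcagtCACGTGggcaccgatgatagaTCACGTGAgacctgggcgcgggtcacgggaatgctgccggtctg
Atp6v1a (chr16:44139210-44139509, minus strand): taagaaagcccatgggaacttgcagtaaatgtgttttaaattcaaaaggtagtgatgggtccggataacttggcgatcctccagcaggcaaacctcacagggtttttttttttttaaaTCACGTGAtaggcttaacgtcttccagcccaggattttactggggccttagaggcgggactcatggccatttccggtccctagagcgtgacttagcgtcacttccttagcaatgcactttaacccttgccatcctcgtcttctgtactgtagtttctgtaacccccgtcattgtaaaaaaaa
Atp6v0e (chr17:26676146-26676445, plus strand): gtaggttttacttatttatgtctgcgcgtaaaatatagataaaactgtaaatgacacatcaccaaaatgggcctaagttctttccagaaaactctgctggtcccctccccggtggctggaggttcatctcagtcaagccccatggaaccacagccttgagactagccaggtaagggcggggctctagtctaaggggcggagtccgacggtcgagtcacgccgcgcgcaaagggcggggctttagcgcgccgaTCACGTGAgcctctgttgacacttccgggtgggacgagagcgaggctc
Mcoln1 (chr8:3500269-3500568, plus strand): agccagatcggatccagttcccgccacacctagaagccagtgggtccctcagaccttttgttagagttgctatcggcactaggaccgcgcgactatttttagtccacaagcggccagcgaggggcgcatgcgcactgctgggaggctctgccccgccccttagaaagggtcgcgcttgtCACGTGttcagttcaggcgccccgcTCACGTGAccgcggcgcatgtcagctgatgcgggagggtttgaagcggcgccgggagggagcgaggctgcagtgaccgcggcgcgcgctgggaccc

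Of the 32 members, 24 had a window in the RefSeq table. The hexamer CACGTG, which reads the same on both strands, was in the windows of 9 of these 24 genes (37.5%), against 11.5% of the 10773 tested genes with a window and 8.09% of all 27025 genes of the table. The palindrome TCACGTGA, which contains the hexamer, was in the windows of 7 of 24 members (29.2%), against 2.05% of the tested genes and 1.12% of all genes of the table. Lamp1 and Atp6v0b had the hexamer without the flanking letters, and Atp6v0d1, Atp6v0e, Atp6v1a, Mcoln1, Clcn7, Slc36a1 and Cln3 had both. Lamp1 held 4 matches, which began 61, 45, 28 and 15 bases before its start. A gene can have several annotated starts. The Atp6v1a window and the Cln3 window with matches (126583187 to 126583486) lie inside the annotated genes. The outer starts of these minus-strand genes are at 44139702 for Atp6v1a and 126585817 for Cln3. The Cln3 window at that outer start (126585768 to 126586067) held no match. The element is known from promoters of lysosomal genes, so a higher share in a list of such genes is no independent finding. A match is a description of the letters, and binding was not measured here.

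**Figure D1:**
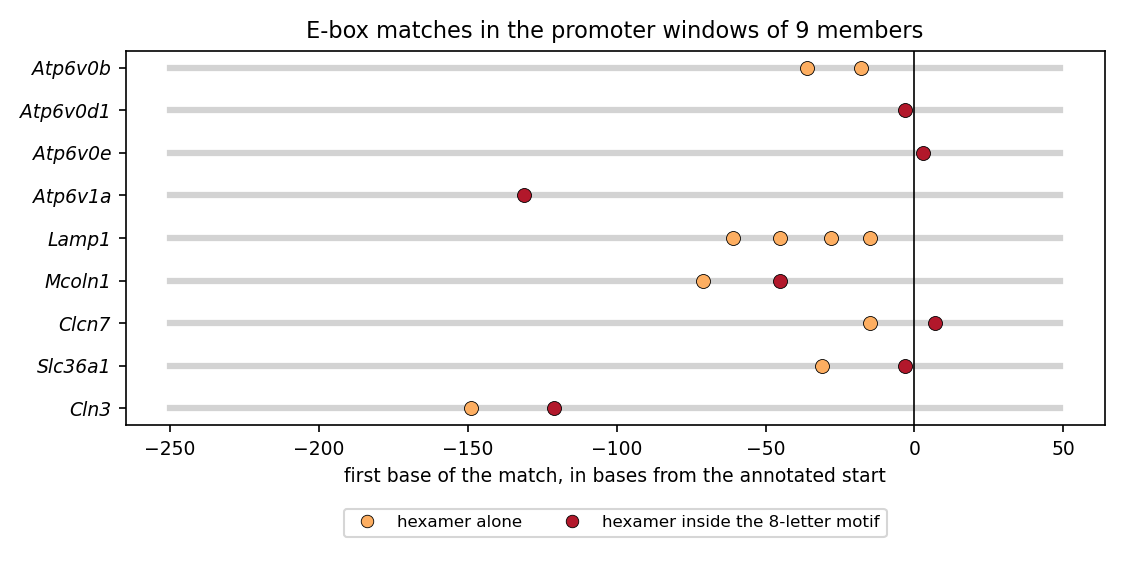
Positions of the hexamer CACGTG in the promoter windows of the 9 members that hold it. Each grey line is a window from 250 bases before to 50 bases after the annotated start, the x axis is the distance of the first base of a match from the start in bases, and the colours tell a hexamer alone from a hexamer inside TCACGTGA. The 4 matches of Lamp1 lie between 61 and 15 bases before its start. The match of Atp6v1a lies 131 bases before the start used for its window, which is inside the annotated gene.

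The question for expression was whether these genes differed between the TFEB overexpression and the control libraries. None of the 32 passed the test. By edgeR's quasi-likelihood test with Benjamini-Hochberg adjustment, 0 of 32 members had an adjusted p under 0.05, and the adjusted p was 1.00 for each of them. The share called over all genes was 0% (0 of 13565). At an unadjusted p under 0.05 the count was 0 of 32 members, against 1.21% of all genes (164 of 13565), and the lowest unadjusted edgeR p of a member was 0.124, for Atp6v0d2. DESeq2 called 0 of 32 members and 0.00572% of all genes (1 of 17469), and limma-voom called 0 of 32 members and 0% of all genes.

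The fitted log2 fold change, TFEB overexpression over control, was above 0 in 23 of 32 members (71.9%), against 51.0% of all genes tested (6915 of 13565). Its median was 0.04 over the members and 0.003 over all genes. Members are not independent of each other, and leaving out 1 library, TFEB 34, brought the number above 0 to 15 of 32 and the median to -0.0035. In CPM, 2 members had groups that did not overlap: Atp6v0c was higher in TFEB overexpression (background 2.26% of all genes) and Mcoln1 was lower (background 2.50%), against 4.75% of all genes in either direction. Both members overlapped between the groups in TPM. That level is corrected for transcript length and lacks the TMM correction of library size used for the CPM.

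The intervals show which differences these libraries could have missed. The 95% interval of the TFEB overexpression to control ratio lay within 1.5-fold either way for 25 of 32 members (78.1%), against 55.0% of all genes (7465 of 13565). The 7 others were Tcirg1, Atp6v0d2, Atp6v0e, Atp6v0e2, Atp6v1a, Cd63 and Laptm4b. The highest library stood at a median of 1.27 times the lowest over the members and 1.48 times over all genes. The median standard error of the log2 fold change was 0.12 over the members and 0.18 over all genes.

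**Figure D2:**
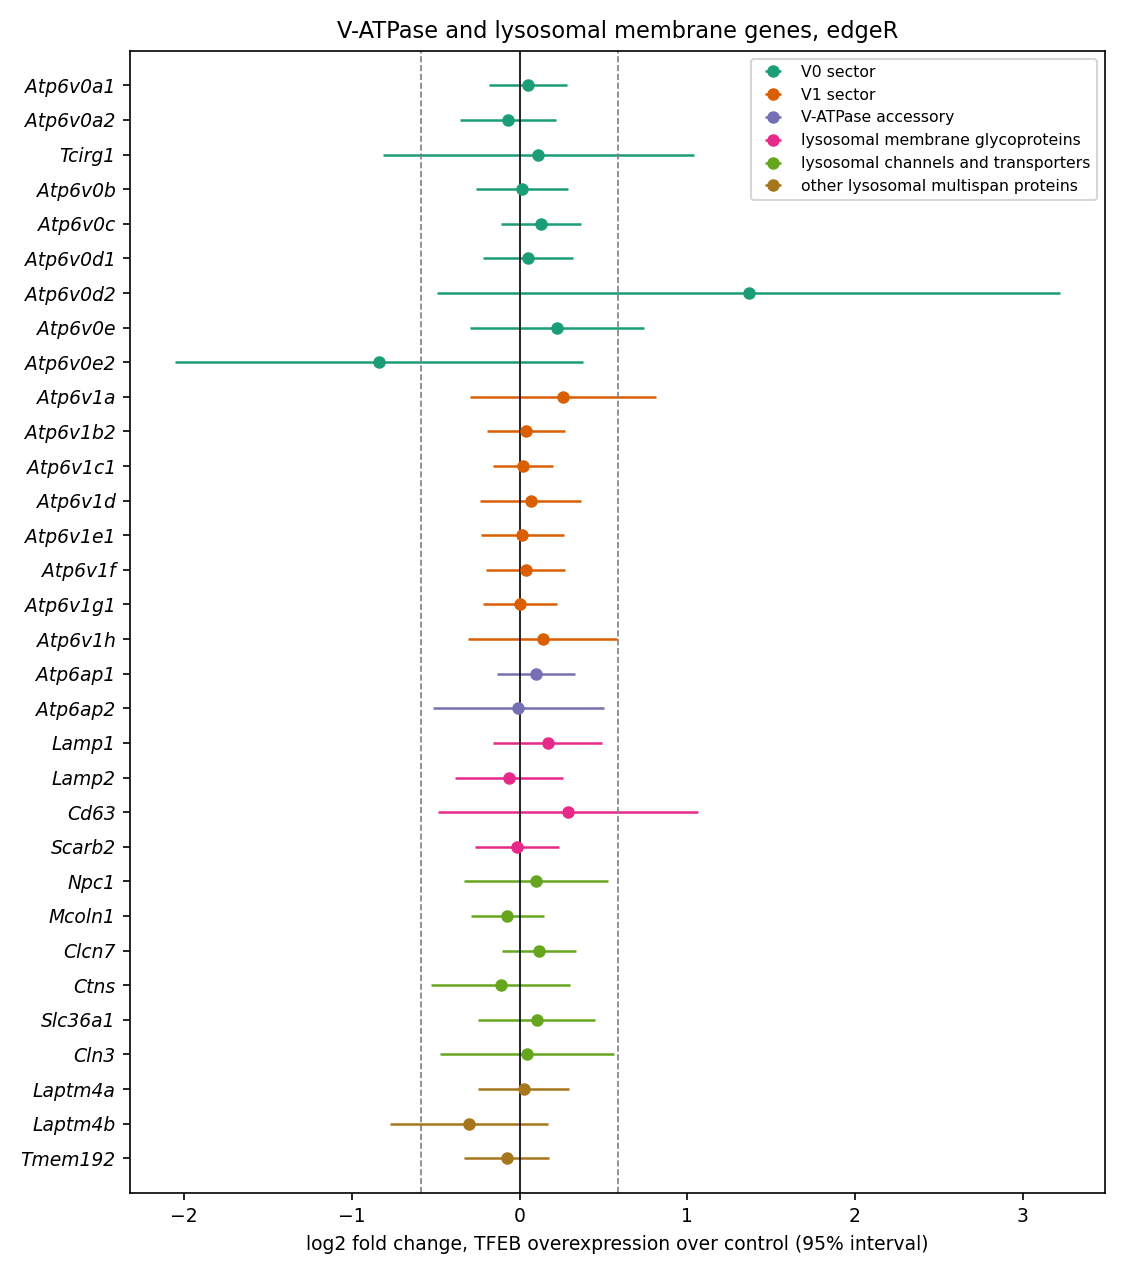
Log2 fold change, TFEB overexpression over control, of each of the 32 members by class, with its 95% interval from edgeR (3 libraries a group) and dashed lines at 1.5-fold either way. Every interval includes 0, and the widest belongs to Atp6v0d2, from -0.49 to 3.23.

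Levels per transcript length spanned a 236-fold range over the members. Mean TPM over the 6 libraries was highest for Lamp1 (456 TPM), Laptm4a (423.5 TPM), Cd63 (418 TPM) and Atp6v0c (322 TPM), the last of which encodes the proteolipid of the proton-carrying ring. It was lowest for Atp6v0d2, at 1.93 TPM. There were 12 members over 100 TPM and 6 under 20 TPM: Tcirg1, Atp6v0e2, Ctns, Slc36a1, Cln3 and Atp6v0d2. Within V1, the mean level of Atp6v1b2 (80.2 TPM) was above that of Atp6v1a (23.1 TPM), although their products alternate in the same catalytic head.

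**Figure D3:**
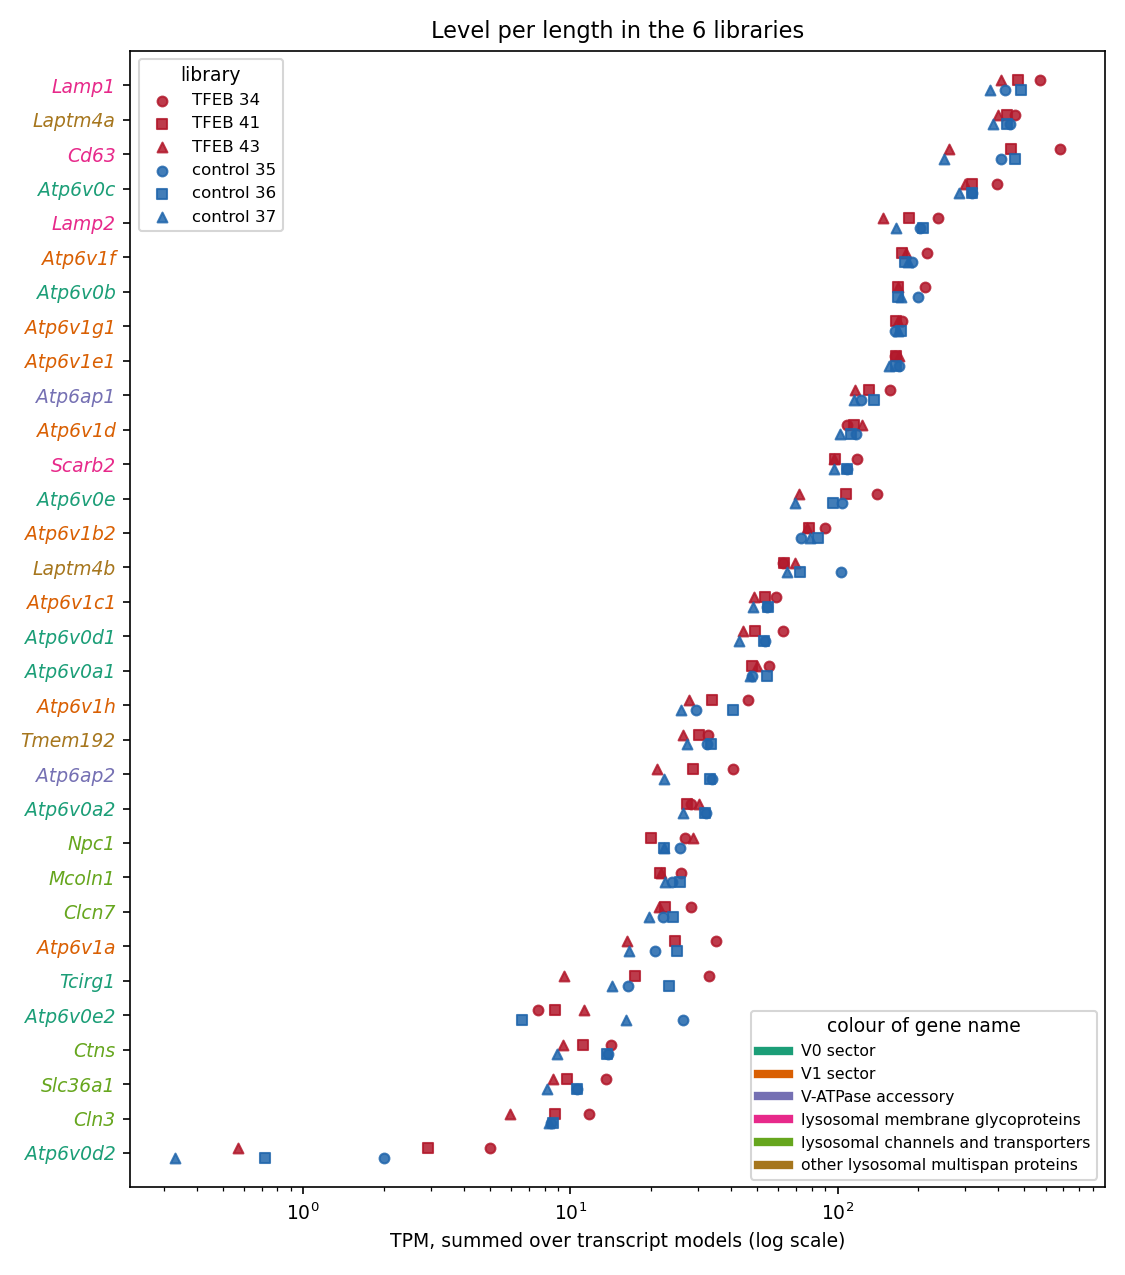
TPM of each member in each of the 6 libraries on a log axis, with TFEB overexpression in red and drawn above control in blue, genes ordered by mean level and gene names coloured by class. Lamp1 leads with a mean of 456 TPM and Atp6v0d2 is last with 1.93 TPM.

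In V0, the value lay above 0 in 7 of 9 genes, with a median log2 fold change of 0.05 and a range of -0.84 to 1.37, and 0 of 9 were called. Atp6v0c (chromosome 17, 24163865 to 24169678, build GRCm38.p6, Entrez 11984) had 198.5, 174.5 and 178.1 CPM in TFEB 34, 41 and 43, against 174.0, 164.9 and 166.0 CPM in controls 35, 36 and 37. All TFEB overexpression libraries lay above all controls, the closest by a margin of 174.5 to 174.0 CPM. The log2 fold change was 0.13 with an SE of 0.10 (95% interval -0.11 to 0.36), and the edgeR adjusted p was 1.00.

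Subunit a, which anchors V1 to V0 and sets the compartment of the pump, has several isoforms. Atp6v0a1 had 113, 107 and 124 CPM in TFEB 34, 41 and 43, against 105, 115 and 112 CPM in controls 35, 36 and 37. Atp6v0a2 had 80.1, 84.1 and 101 CPM in the TFEB overexpression libraries, against 98.8, 93.0 and 87.1 CPM in the controls. Tcirg1, the a3 isoform known from the osteoclast proton pump, had 45.1, 25.6 and 15.2 CPM in the TFEB overexpression libraries, against 24.3, 32.8 and 22.6 CPM in the controls. The groups overlapped in all 3 genes, with log2 fold changes of 0.05 (SE 0.10), -0.07 (SE 0.12) and 0.11 (SE 0.39) in that order. TFEB 34 and TFEB 43 held the highest and the lowest Tcirg1 value of the 6 libraries.

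By TPM, Atp6v0a1 made up 51.0% ± 4.61 of the transcripts of subunit a in TFEB overexpression and 50.6% ± 2.62 in controls (SD, n = 3 each). The share of Atp6v0a2 was 28.7% ± 4.91 in TFEB overexpression and 30.5% ± 2.34 in controls. The share of Tcirg1 was 18.9% ± 8.61 in TFEB overexpression and 18.1% ± 2.56 in controls. The isoform makeup of subunit a thus differed between the groups by less than the spread between libraries, while the Tcirg1 share varied most among the TFEB overexpression libraries, from 10.6% to 27.8%.

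Subunit d couples the ring to the central stalk. Atp6v0d1, the ubiquitous isoform, had 48.4, 40.98 and 40.4 CPM in TFEB 34, 41 and 43, against 44.8, 42.3 and 38.4 CPM in controls 35, 36 and 37, and its log2 fold change was 0.05 (SE 0.11). Atp6v0d2 (chromosome 4, 19876838 to 19922566, Entrez 242341), the isoform known from osteoclasts and macrophages, had 6.36, 4.03 and 1.07 CPM in the TFEB overexpression libraries, against 2.82, 0.982 and 0.622 CPM in the controls. TFEB 34 and TFEB 41 lay above all controls and TFEB 43 lay between controls. The fitted ratio was 2.58 (95% interval 0.711 to 9.36), a log2 fold change of 1.37 (SE 0.77), against 1.36 by limma-voom. The value was 0.65 on the log2(FPKM + 1) scale, where the pseudocount shrinks low genes, 0.78 without TFEB 34 and 2.24 without control 35. The lowest count of Atp6v0d2 was 8, in control 37.

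Within the TFEB overexpression libraries, macrophage markers had the same order as Atp6v0d2 and Tcirg1. That order, TFEB 34 above 41 above 43, was not particular to them. It was held by 15 of 32 members and by the summed fibroblast and myofibroblast markers. Among the controls, Tcirg1 kept the order of the macrophage markers and Atp6v0d2 did not. The summed level of 12 macrophage markers was 1001, 635 and 362 CPM in TFEB 34, 41 and 43, against 540, 647 and 378 CPM in controls 35, 36 and 37, a range of 362 to 1001 CPM against 378 to 647 CPM. None of these 12 was at 0 in any library, and 11 of 12 had a value above 0. The 6 osteoclast markers summed to 9.42 to 62.4 CPM in TFEB overexpression and 10.5 to 40.97 CPM in controls. Of these, the 3 genes Ocstamp, Dcstamp and Calcr were under 1 CPM in every library and at 0 in some. Acp5, Ctsk and Mmp9 were above 0 in every library. Ctsk made up most of the sum, with 7.76 to 55.95 CPM in TFEB overexpression and 8.63 to 32.92 CPM in controls. The part of macrophages in the Atp6v0d2 and Tcirg1 values was not tested.

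The small subunit e is embedded beside the ring. Atp6v0e2 had 6.61, 8.27 and 11.6 CPM in TFEB 34, 41 and 43, against 24.9, 5.96 and 16.4 CPM in controls 35, 36 and 37. Controls 35 and 37 lay above all TFEB overexpression libraries and control 36 below them, and the log2 fold change was -0.84 (SE 0.51, 95% interval -2.06 to 0.38). Without control 35 it was -0.34. Its companion Atp6v0e averaged 33.5 ± 8.27 CPM in TFEB overexpression and 28.7 ± 4.87 CPM in controls (SD, n = 3 each), a log2 fold change of 0.23 (SE 0.22). Atp6v0b, a further proteolipid of the ring, averaged 85.2 ± 6.599 CPM in TFEB overexpression and 84.3 ± 8.92 CPM in controls, a log2 fold change of 0.014 (SE 0.11).

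In V1, the value lay above 0 in 8 of 8 genes, against 51.0% of all genes tested. The median log2 fold change was 0.04, the range was 0.002 to 0.26, and 0 of 8 were called. With a library left out, the values of Atp6v1b2, Atp6v1d, Atp6v1e1, Atp6v1f, Atp6v1g1 and Atp6v1h each fell below 0 at least once. Atp6v1a (chromosome 16, 44085402 to 44139702, Entrez 11964), whose promoter is printed above, had 77.0, 58.2 and 42.1 CPM in TFEB 34, 41 and 43, against 49.1, 56.8 and 42.2 CPM in controls 35, 36 and 37. TFEB 34 stood above the other libraries, and TFEB 43 was the lowest of the 6. The log2 fold change was 0.26 (SE 0.23, 95% interval -0.30 to 0.82), and it was 0.022 with TFEB 34 left out.

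Atp6v1b2, the B subunit that forms the catalytic head with A, had 124, 117 and 126 CPM in TFEB 34, 41 and 43, against 109.5, 121 and 127 CPM in controls 35, 36 and 37. Its log2 fold change was 0.04 (SE 0.10), and its gene overlaps Slc18a1 by 503 bases in the annotation. Atp6v1h, a regulatory subunit at the interface with V0, had 48.2, 38.9 and 34.3 CPM in the TFEB overexpression libraries, against 33.5, 45.04 and 31.8 CPM in the controls. The groups overlapped in both genes, and the log2 fold change of Atp6v1h was 0.14 (SE 0.18, 95% interval -0.31 to 0.58).

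The remaining V1 genes encode the stalks and their connectors and had log2 fold changes of 0.07 or less. Atp6v1c1 averaged 59.3 ± 0.629 CPM in TFEB overexpression and 58.5 ± 1.74 CPM in controls (SD, n = 3 each), a log2 fold change of 0.02 (SE 0.07). Atp6v1d averaged 80.4 ± 11.6 CPM in TFEB overexpression and 76.8 ± 4.03 CPM in controls, a log2 fold change of 0.07 (SE 0.12). Atp6v1e1 averaged 95.8 ± 9.55 CPM in TFEB overexpression and 94.6 ± 3.83 CPM in controls, a log2 fold change of 0.02 (SE 0.10). These 3 genes encode the C, D and E subunits. Atp6v1f averaged 42.0 ± 2.87 CPM in TFEB overexpression and 40.99 ± 2.84 CPM in controls, a log2 fold change of 0.04 (SE 0.10). Atp6v1g1 averaged 84.5 ± 5.61 CPM in TFEB overexpression and 84.3 ± 4.53 CPM in controls, a log2 fold change of 0.002 (SE 0.09). The F subunit sits in the central stalk and G in the peripheral stalks.

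The 2 accessory genes encode membrane proteins that assist assembly of the pump. Atp6ap1 had 170, 154 and 149 CPM in TFEB 34, 41 and 43, against 144, 153 and 145 CPM in controls 35, 36 and 37, a log2 fold change of 0.10 (SE 0.10). Atp6ap2, also known as the prorenin receptor, had 47.8, 36.5 and 29.2 CPM in the TFEB overexpression libraries, against 42.97, 40.3 and 30.7 CPM in the controls. Its log2 fold change was -0.0061 (SE 0.21), and the groups overlapped in both genes.

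**Figure D4:**
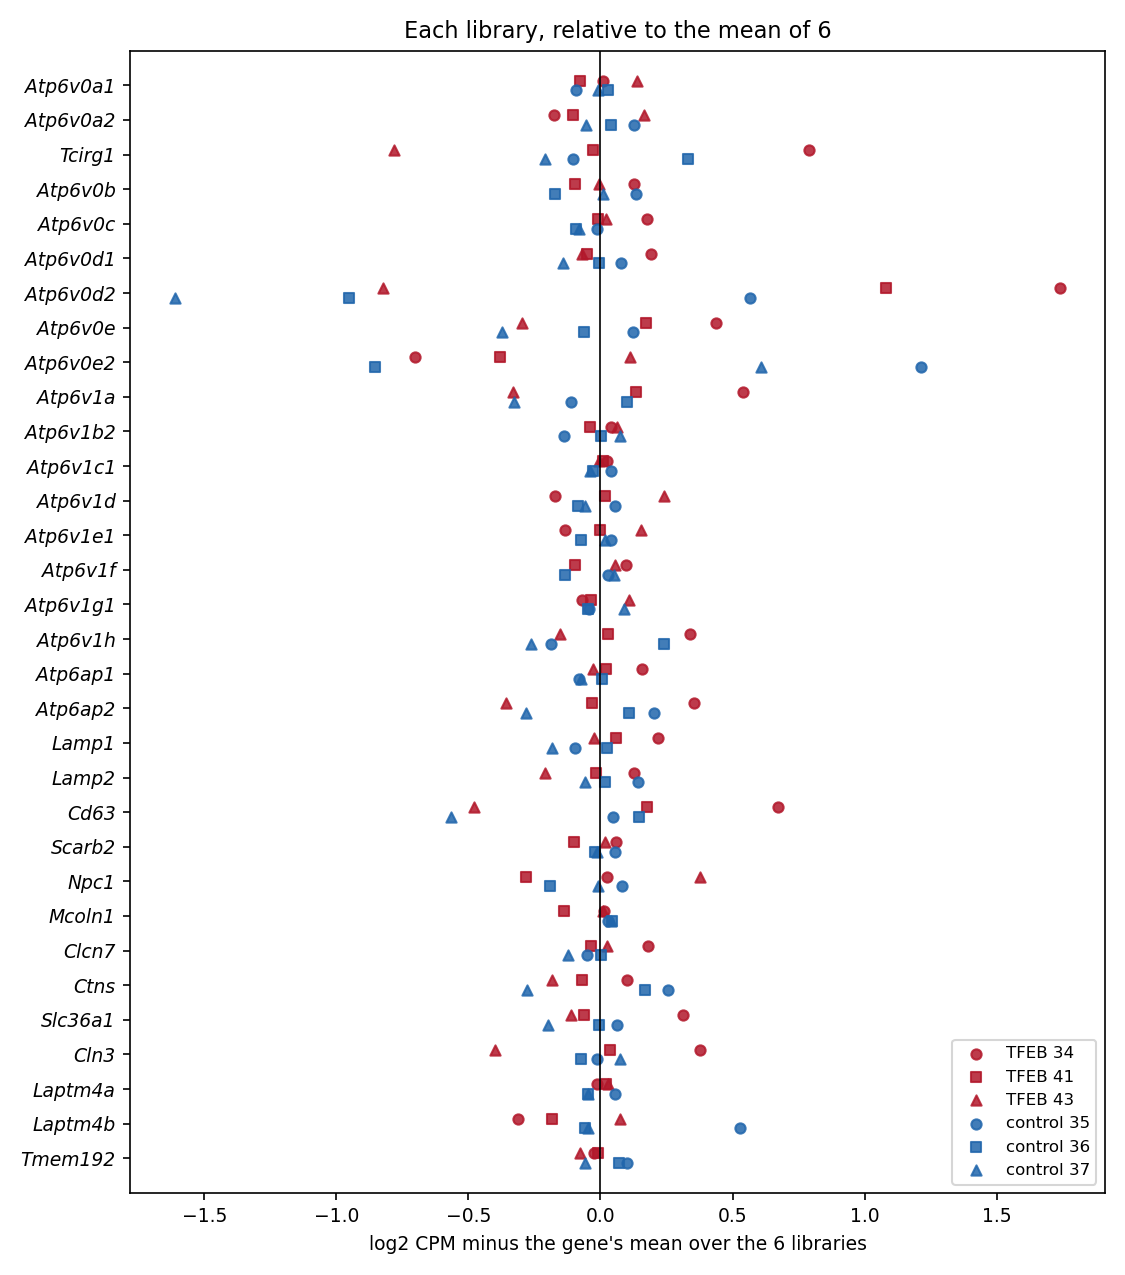
Log2 CPM of each member in each library minus the gene's mean over the 6 libraries, with TFEB overexpression in red and drawn above control in blue. Atp6v0c has all TFEB overexpression libraries above all controls, and TFEB 34 is the highest library for Tcirg1, Atp6v0d2, Atp6v1a and Cd63.

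Among the lysosomal membrane glycoproteins, the value lay above 0 in 2 of 4 genes, with a median log2 fold change of 0.08, and 0 of 4 were called. Lamp1 (chromosome 8, 13159161 to 13175338, Entrez 16783), a main coat protein of the lysosomal membrane, had 626.5, 562 and 529.5 CPM in TFEB 34, 41 and 43, against 504, 549 and 475 CPM in controls 35, 36 and 37. TFEB 43 lay below control 36, and the log2 fold change was 0.17 (SE 0.13, 95% interval -0.16 to 0.49). Lamp2 (chromosome X, 38399647 to 38456460, Entrez 16784), which is needed for autophagosome clearance and is mutated in the cardiomyopathy Danon disease, had 350.3, 317 and 277.5 CPM in the TFEB overexpression libraries, against 354, 325 and 308 CPM in the controls. Its log2 fold change was -0.06 (SE 0.13).

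The Lamp1 to Lamp2 ratio of TPM was 2.41, 2.57 and 2.76 in TFEB 34, 41 and 43, against 2.09, 2.33 and 2.26 in controls 35, 36 and 37. The groups did not overlap, in TPM or in CPM. A two-sided exact permutation test gave p = 0.1, the smallest that 3 libraries against 3 allow. It was 0.3 after Benjamini-Hochberg adjustment over the 4 isoform or paralog pairs compared. Groups that do not overlap fix this p, so it adds nothing to the values. The ratio was singled out after its values were seen, which the adjustment does not cover. How often ratios of other gene pairs lie apart was not examined. The other 3 ratios, Atp6v0d1 to Atp6v0d2, Atp6v0e to Atp6v0e2 and Laptm4a to Laptm4b, overlapped between the groups.

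Cd63, a tetraspanin of late endosomes, lysosomes and exosomes, had 242, 171.5 and 109 CPM in TFEB 34, 41 and 43, against 157, 168 and 102.5 CPM in controls 35, 36 and 37. TFEB 34 was again highest and the ranges overlapped, with a log2 fold change of 0.29 (SE 0.32, 95% interval -0.49 to 1.06). Scarb2, the receptor that carries glucocerebrosidase to lysosomes, had 295, 264 and 286 CPM in the TFEB overexpression libraries, against 294, 279 and 280.5 CPM in the controls, and its log2 fold change was -0.015 (SE 0.10).

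Among the channels and transporters, the value lay above 0 in 4 of 6 genes, with a median log2 fold change of 0.07, and 0 of 6 were called. Mcoln1 (chromosome 8, 3500519 to 3515232, Entrez 94178) had 25.1, 22.6 and 25.0 CPM in TFEB 34, 41 and 43, against 25.3, 25.6 and 25.6 CPM in controls 35, 36 and 37. All TFEB overexpression libraries lay below all controls, TFEB 34 by 25.11 against 25.34 CPM, and the log2 fold change was -0.07 (SE 0.09, 95% interval -0.29 to 0.14). Clcn7 (chromosome 17, 25133378 to 25162103, Entrez 26373) had 60.1, 51.8 and 54.0 CPM in the TFEB overexpression libraries, against 51.2, 53.1 and 48.8 CPM in the controls, a log2 fold change of 0.12 (SE 0.09, 95% interval -0.11 to 0.34).

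Npc1, the cholesterol exporter of late endosomes and lysosomes, had 73.9, 59.9 and 94.3 CPM in TFEB 34, 41 and 43, against 77.0, 63.6 and 72.2 CPM in controls 35, 36 and 37. Its log2 fold change was 0.10 (SE 0.18), and its gene overlaps Rmc1 by 8982 bases. The others of this class had its lowest mean levels by TPM, at 11.9 TPM for Ctns, 10.2 TPM for Slc36a1 and 8.65 TPM for Cln3. Ctns, the cystine exporter, averaged 16.4 ± 1.63 CPM in TFEB overexpression and 17.8 ± 3.33 CPM in controls (SD, n = 3 each), a log2 fold change of -0.11 (SE 0.17). Slc36a1, a proton-coupled amino acid transporter, averaged 31.95 ± 5.34 CPM in TFEB overexpression and 29.8 ± 2.73 CPM in controls, a log2 fold change of 0.10 (SE 0.15). Cln3, the protein lost in juvenile Batten disease, averaged 8.95 ± 2.36 CPM in TFEB overexpression and 8.70 ± 0.450 CPM in controls, a log2 fold change of 0.04 (SE 0.22), and its gene overlaps Apobr by 900 bases.

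Among the other multispan proteins, the value lay above 0 in 1 of 3 genes, with a median log2 fold change of -0.08, and 0 of 3 were called. Laptm4a had 489, 500.1 and 502 CPM in TFEB 34, 41 and 43, against 512, 477 and 477 CPM in controls 35, 36 and 37, a log2 fold change of 0.02 (SE 0.11). Its paralog Laptm4b, known to recruit a leucine transporter to lysosomes, had 56.8, 62.1 and 74.2 CPM in the TFEB overexpression libraries, against 102, 67.7 and 68.3 CPM in the controls. Control 35 stood above the other 5 libraries, and the log2 fold change was -0.30 (SE 0.19, 95% interval -0.77 to 0.17). Tmem192, a small protein used to tag lysosomes for purification, averaged 15.3 ± 0.383 CPM in TFEB overexpression and 16.1 ± 0.925 CPM in controls (SD, n = 3 each), a log2 fold change of -0.08 (SE 0.10).

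Read against the promoter letters, the 9 members with CACGTG had a median log2 fold change of 0.10, with 8 of 9 above 0, and the 15 members with a window but no match had a median of 0.02, with 9 of 15 above 0. Over all tested genes the median was 0.016 with a match (680 of 1241 above 0) and 0.0011 without one (4801 of 9532 above 0). Mcoln1 lay below 0, at -0.07. Members are not independent of each other, and the signs depended on single libraries. With a library left out, Atp6v0b, Atp6v0d1, Slc36a1 and Cln3 fell as low as -0.063, -0.041, -0.044 and -0.16. Lamp1, Atp6v0e, Atp6v1a and Clcn7 stayed above 0, with Atp6v1a as low as 0.022. No member with or without the letters passed the test.

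Other genes of the same pathway were taken from lists. Of 6 tissue-restricted V-ATPase isoforms, 2 passed the filter on low counts and 0 were called. Atp6v0a4, the kidney isoform of subunit a, had 4.26, 3.15 and 0.496 CPM in TFEB 34, 41 and 43, against 1.14, 3.09 and 0.389 CPM in controls 35, 36 and 37, and Atp6v1g2, the neuronal isoform of subunit G, averaged 4.04 ± 0.810 CPM in TFEB overexpression and 3.96 ± 0.429 CPM in controls. Of 10 assembly and regulation genes, 0 were called, 5 of 10 had a value above 0 and the median was -0.01. Dmxl2, a subunit of the rabconnectin complex that promotes joining of V1 to V0, had 40.1, 40.1 and 40.2 CPM in the TFEB overexpression libraries, against 31.6, 38.1 and 28.3 CPM in the controls. Its groups did not overlap in CPM (higher, background 2.26% of all genes) but did in TPM. Its log2 fold change was 0.30 with an SE of 0.12 at an edgeR adjusted p of 1.00. Next in order of p were Oxr1, a TLDc domain protein known to take the pump apart, at -0.29 (SE 0.19), and Ccdc115, an assembly factor of V0, at 0.10 (SE 0.11).

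Of 31 further lysosomal membrane proteins, 29 were tested, 0 were called, 19 had a value above 0 and the median was 0.03. Mfsd12, a cysteine importer of lysosomes and melanosomes, had 21.2, 19.3 and 16.8 CPM in TFEB 34, 41 and 43, against 16.9, 14.7 and 15.1 CPM in controls 35, 36 and 37, a log2 fold change of 0.30 (SE 0.13). Slc15a3, a proton-coupled histidine and peptide transporter of immune cells, followed at 0.66 (SE 0.45), and Mcoln2, a relative of Mcoln1, at 0.79 (SE 0.62). The groups overlapped in each of these 3 genes. In the same list, Stx7 was higher without overlap in CPM (background 2.26% of all genes), the closest by 69.62 to 69.59 CPM. Slc66a1 was lower without overlap in CPM (background 2.50%). Both overlapped between the groups in TPM.

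Over all members, libraries of the same group differed by more than the group means did. TFEB 34 was the highest of the 6 libraries for 16 of 32 members, control 35 for 8, TFEB 43 for 6, controls 36 and 37 for 1 each and TFEB 41 for 0. Control 37 was the lowest for 11. The mean log2 CPM of all members, relative to its mean over the 6 libraries, was 0.17, -0.0054 and -0.08 in TFEB 34, 41 and 43, against 0.09, -0.05 and -0.12 in controls 35, 36 and 37. The group means were 0.03 ± 0.13 in TFEB overexpression and -0.03 ± 0.11 in controls (SD, n = 3 each). V0 spread from -0.17 to 0.28 in TFEB overexpression and from -0.19 to 0.22 in controls. V1 stayed between 0.0021 and 0.08 in TFEB overexpression and between -0.06 and -0.0032 in controls, so its groups did not overlap. The V1 group means were 0.03 ± 0.04 in TFEB overexpression and -0.03 ± 0.03 in controls (SD). How often the means of other gene lists lie apart was not examined.

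The same measure for cell type markers spread further. Macrophage markers stood at 1.05, 0.37 and -0.90 in TFEB 34, 41 and 43, against 0.02, 0.31 and -0.85 in controls 35, 36 and 37. Myofibroblast markers stood at 2.41, 1.11 and -3.06 in the TFEB overexpression libraries, against -0.38, 1.67 and -1.74 in the controls. Cardiomyocyte markers stood at -0.23, 0.19 and 0.14 in the TFEB overexpression libraries, against -0.32, 0.04 and 0.18 in the controls. Myh7, which weighs on this mean, had 3251, 1315 and 74.2 CPM in TFEB 34, 41 and 43, against 167.6, 2295 and 281 CPM in the controls. Summed, the 12 cardiomyocyte markers ran the other way, at 72730, 104200 and 135100 CPM in TFEB 34, 41 and 43. The controls had 94700, 89570 and 122100 CPM. TFEB 34 thus had the highest myofibroblast and macrophage values of the 6, and TFEB 43 the lowest. Summed, the 10 myofibroblast markers had 303 to 9166 CPM in TFEB overexpression and 545 to 5093 CPM in controls, and no gene of these 3 lists was at 0 in any library. The part of cell makeup in the members' values was not tested.

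**Figure D5:**
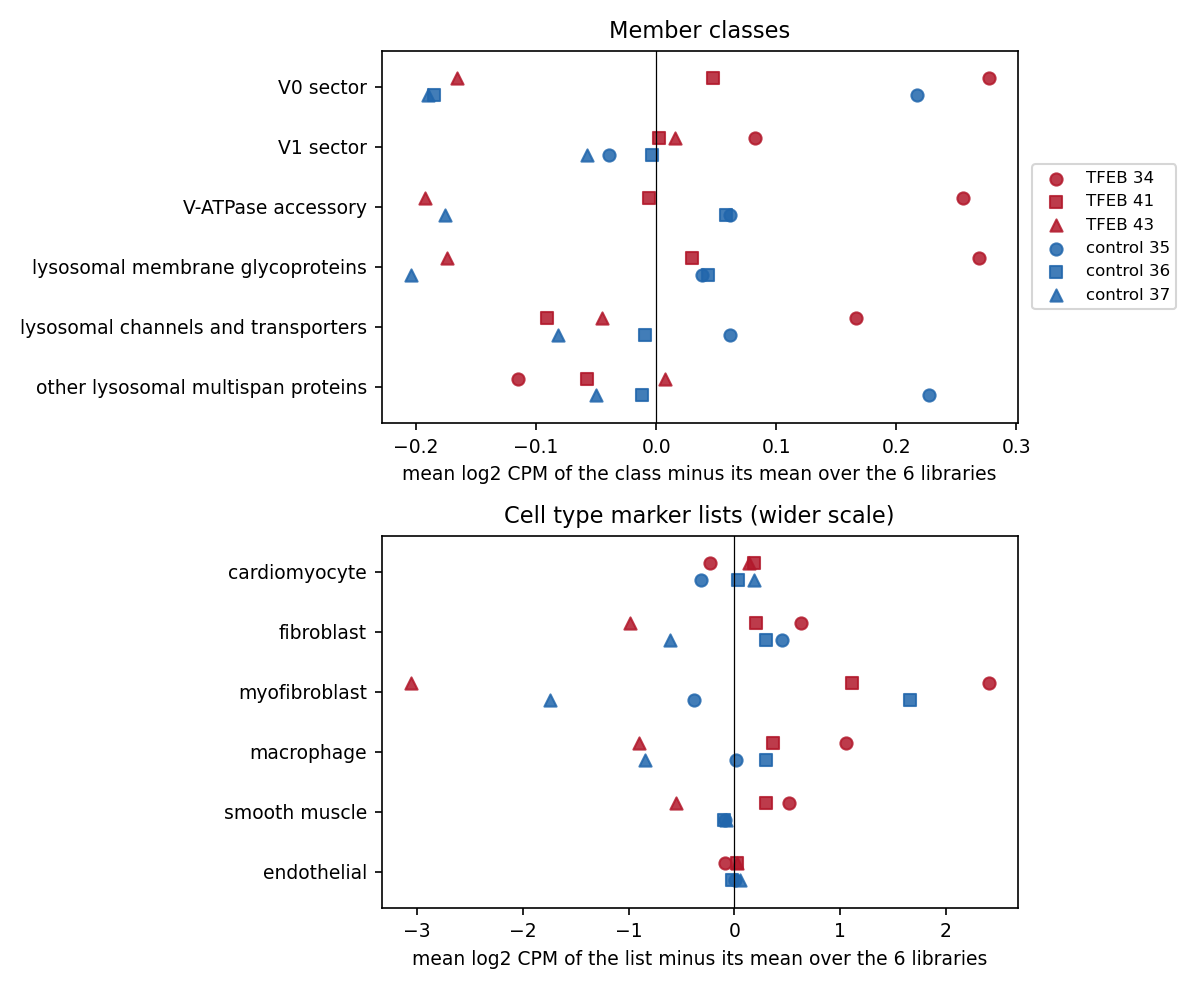
Mean log2 CPM of each member class (top) and of cell type marker lists (bottom, on a wider scale) in each library, relative to its mean over the 6 libraries, with TFEB overexpression drawn above control. In V0 the values of the TFEB overexpression libraries run from -0.17 to 0.28, and in V1 they run from 0.0021 to 0.08. Myofibroblast markers run from -3.06 to 2.41.

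The table also divides each gene among transcript models. Of the members, 12 have 1 model and 20 have several, 82 models in all. The share of a model in the TPM of its gene did not overlap between the groups for 9 of 82 models (11.0%), against 6.58% of 52036 models over all tested genes. Shares within a gene sum to 100%, so a gene with 2 models counts with both. For Clcn7, the lesser model took 13.0%, 8.90% and 2.74% in TFEB 34, 41 and 43, or 3.68, 2.01 and 0.590 TPM, and was listed at 0 in all 3 controls. For Npc1, the lesser model took 2.58%, 2.39% and 3.19% in the TFEB overexpression libraries, against 0.662%, 0.761% and 0.714% in the controls, at 0.920 TPM or less in every library. Both are low values that rest on the division of shared reads between models, and a model listed at 0 can be a failed estimate.

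Lamp2, known for isoforms that differ in the membrane-spanning end, had a leading model with 58.4%, 68.7% and 65.5% of its TPM in TFEB 34, 41 and 43, against 68.4%, 61.3% and 67.1% in controls 35, 36 and 37. Its second model had 39.0%, 27.9% and 29.2% in the TFEB overexpression libraries, against 26.7%, 35.8% and 27.1% in the controls. The groups overlapped for both models. TFEB 34 and control 36 had the highest shares of the second model.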

How the data were processed

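RNA-seq of 6 mouse heart libraries was analysed from a table of estimated counts per RefSeq transcript model, with TPM and FPKM beside them, as deposited by the authors. Per the submitters' processing notes, the build was mm10 and the tools included RSEM 1.3.1, DESeq2 1.4.5, HISAT2 2.1.0 and also Bowtie2 2.3.4.3. The sources used here do not give strand handling, without which reads of overlapping genes cannot be told apart. Estimated counts of 62498 models were summed per gene and rounded to whole numbers, giving 17524 genes and 12942480 to 14969287 counts a library (highest over lowest 1.16). The 117 genes with no symbol held 0.510% of the counts.

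The 3 TFEB overexpression libraries were compared with the 3 control libraries with edgeR 4.0.16 in R 4.3.3 (filterByExpr, TMM, quasi-likelihood test, Benjamini-Hochberg adjustment over all 13565 genes tested). CPM are counts scaled to the TMM-corrected library size. TPM from the deposited table, summed over models, were used between genes. SE is the log2 fold change divided by the root of the F statistic. Alternatives were DESeq2 1.42.0 and limma 3.58.1 (voom, and trend on log2(TPM + 1), log2(TPM + 0.1) and log2(FPKM + 1)), other scalings and filters, and each library left out. Libraries of 1 group differed by 43.5 to 149 chi-square units per degree of freedom, which is more than counting noise. This measure cannot tell samples of 1 heart from samples of different animals. All 32 members are named. Values per library are given for a fixed panel and for the lowest p in each class. Of each other pathway list, the up to 3 genes of lowest p are named, and also any with groups that did not overlap in CPM. Members, lists and the panel were chosen with earlier results of these data known. The Lamp1 to Lamp2 ratio and the transcript models named were singled out after their values were seen. Scripts were tested on simulated data.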

Additional observations from a re-analysis of the deposited data

How the results depend on the processing

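The number of members with an adjusted p under 0.05 was 0 under every alternative run, and the lowest adjusted p of a member in any of them was 0.792. The number of members above 0 was 21 to 24 over the alternatives that kept all libraries. With a library left out it was 15 to 25, lowest without TFEB 34, and the median log2 fold change was -0.0035 to 0.088.

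In 10 alternatives with all libraries, 5 of 320 fold changes turned sign: Atp6ap2 to 0.003 (upper quartile) and 0.0009 (DESeq2), Tcirg1 to -0.0023 (log2(TPM + 0.1)) and -0.001 (log2(FPKM + 1)), and Atp6v1g1 to -0.0022 (log2(FPKM + 1)). With a library left out, 27 of 192 did, in 17 members, whose log2 fold changes ranged as follows: Atp6ap2 -0.21 to 0.15, Atp6v0a1 -0.0093 to 0.12, Atp6v0b -0.063 to 0.089, Atp6v0d1 -0.041 to 0.10, Atp6v1b2 -0.018 to 0.087, Atp6v1d -0.047 to 0.16, Atp6v1e1 -0.060 to 0.084, Atp6v1f -0.020 to 0.11, Atp6v1g1 -0.054 to 0.048, Atp6v1h -0.0078 to 0.31, Cd63 -0.024 to 0.54, Cln3 -0.16 to 0.22, Lamp2 -0.15 to 0.020, Npc1 -0.085 to 0.26, Scarb2 -0.049 to 0.047, Slc36a1 -0.044 to 0.18 and Tcirg1 -0.38 to 0.42. The cause was not tested. In 15 members no alternative turned the sign. The log2 Lamp1 to Lamp2 ratio difference was 0.21 in TPM and 0.23 in CPM, an alternative chosen after seeing the data.

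No paired analysis was possible because the groups share no replicate numbers. With 3 libraries a group and as few as 8 counts (Atp6v0d2), differences within the intervals given were not detectable here, which does not show that they are absent.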
